A study of Mus musculus with 12 samples.

Results

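The genes described here are 10 enzymes of glycolysis and lactate metabolism in the mouse testis, taken by gene symbol from a table of 20718 genes. Of these, Pgk2, Ldhc, Gapdhs and Eno4 encode the isoforms made in germ cells. Pgk1, Ldha, Ldhb, Gapdh and Eno1 encode the isoforms of other tissues, called somatic here, and Hk1 encodes hexokinase 1. All 10 genes passed the filter on low counts that kept 16296 genes for testing. RNA came from testes of ICR mice (spelled IRC in the labels) injected with lentivirus, in 4 groups of 3 libraries, 12 in all. In the F0_5251KD group the LV3 vector carried 3 mixed short hairpin RNAs directed at the long non-coding RNA lncRNA5251. The LV3 vector of the F0_3NC group carried the control hairpin. In the F0_5251OV group the LV5 vector carried the full length of lncRNA5251, and the F0_5NC group received the empty LV5 vector. All 4 groups thus received a virus, and no uninjected testis was analysed. By the study's methods, the testes were injected at 4 weeks of age, the males were mated at 9 weeks for 4 days, and tissue was collected after another 4 days. F0 stands for the injected generation. Each treatment was set against the control of its own vector, because LV3 and LV5 are different backbones. Whether each of the 3 libraries in a group was made from its own animal is not in the labels, so the p-values may rest on technical spread alone.

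Glycolysis turns glucose into pyruvate, and lactate dehydrogenase interconverts pyruvate and lactate. Sperm use glycolysis to fuel motility, and several of its enzymes occur in the sperm flagellum as isoforms largely restricted to germ cells. Pgk1 lies on the X chromosome, which is silenced during male meiosis, and Pgk2 is an intronless autosomal copy that takes over in spermatocytes and spermatids. Ldhc is likewise transcribed in meiotic and later germ cells, and Gapdhs is also transcribed in germ cells. Somatic supporting cells of the testis, the Sertoli cells, make lactate that germ cells take up. PGK2 was also one of the proteins that the study stained in these testes, as a marker of sperm. It reports a significant rise of PGK2 in the knockdown group. By its methods, the stain was scored by counting positive cells and setting the count against the control. The values given below are levels of Pgk2 RNA in whole tissue, which is another measure.

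The sequences of the isoforms decide whether reads can tell them apart. On the mouse genome GRCm38 (mm10), with the GENCODE M21 annotation, Pgk1 (gene ID 18655) lies at chrX:106187100-106203699 on the plus strand with 11 exons, and Pgk2 at chr17:40207015-40208640 on the minus strand with 1 exon. Ldha at chr7:46841475-46855627 and Ldhc at chr7:46861203-46878142 are neighbours on the plus strand, 5575 bases apart, with 8 exons each. Ldhb lies at chr6:142490249-142507957 on the minus strand with 8 exons. Gapdh (chr6:125161715-125166467) has 7 exons and Gapdhs (chr7:30729775-30743681) has 11, both on the minus strand. Eno1 (chr4:150236721-150248879) has 12 exons and Eno4 (chr19:58943425-58971421) has 14, both on the plus strand. Hk1 (chr10:62268855-62379908, minus strand) has 22 exons in the transcript used here and 20 annotated transcripts. Hk1 was counted as 1 gene, so its germ cell transcripts, which start from their own first exons, could not be told apart from the others.

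Stretches of 60 coding bases show how the germ cell genes differ from their somatic counterparts base by base. Capitals mark the bases that differ within a pair. For phosphoglycerate kinase and lactate dehydrogenase the stretch starts at the start codon, where 20 and 18 bases differ.
Pgk1: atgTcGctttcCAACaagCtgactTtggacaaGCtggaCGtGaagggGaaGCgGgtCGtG
Pgk2: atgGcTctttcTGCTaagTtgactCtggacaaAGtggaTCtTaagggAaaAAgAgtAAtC
Ldha: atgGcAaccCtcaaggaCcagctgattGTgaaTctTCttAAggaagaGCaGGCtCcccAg
Ldhc: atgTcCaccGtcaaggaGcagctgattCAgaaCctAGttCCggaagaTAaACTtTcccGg

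The next pair shows coding bases 82 to 141 of Gapdh beside bases 391 to 450 of Gapdhs, where 16 bases differ, because the Gapdhs coding sequence is longer at its start.
Gapdh: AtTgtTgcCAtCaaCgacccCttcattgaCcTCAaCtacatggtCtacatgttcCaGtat
Gapdhs: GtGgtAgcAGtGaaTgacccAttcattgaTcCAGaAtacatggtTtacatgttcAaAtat

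Over the whole coding sequence, Pgk1 and Pgk2 were identical at 79.3% of 1251 aligned bases, and their transcripts shared no run longer than 22 bases. Ldha and Ldhc were identical at 73.2% of 996 bases, with a longest shared run of 20, and Ldhb and Ldhc at 64.7%. Gapdh and Gapdhs were identical at 70.5% of 992 aligned bases, and 312 bases at the start of Gapdhs had no counterpart in Gapdh. These extra bases encode the proline-rich start of the sperm enzyme. Eno1 and Eno4 had diverged so far that the longest run shared by their transcripts was 11 bases. No stretch of 50 bases was shared between members, so a read of that length could not fit both isoforms of a pair without a mismatch. Fits that allow mismatches were not checked.

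Reads of the somatic genes could fit other loci instead. Of the 50-base stretches of the Gapdh transcript, 82.5% occurred in other annotated genes, mostly processed pseudogenes. The share was 72.2% for Eno1, nearly all of it in the copy Eno1b, and 68.0% for Pgk1, nearly all of it in Pgk1-rs7, which was not among the genes of the table. It was 27.0% for Ldhb and 19.1% for Ldha. For Pgk2, Ldhc, Gapdhs, Eno4 and Hk1 it was 0. The levels of Gapdh, Eno1 and Pgk1, and ratios made with them, are therefore less certain than those of the germ cell isoforms. Gapdh and Eno1 had estimated counts that were not whole in all 12 libraries, and Eno4 in 5.

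The libraries held 15431383 to 16355720 estimated counts each, a ratio of 1.06. No gene of the table was named lncRNA5251, and its level was not analysed here. A set of 3 libraries stood apart from the others of their groups in the genes described here: F0_3NC replicate 2, F0_5251OV replicate 1 and F0_5NC replicate 1. They were the 3 lowest of the 12 libraries in the summed CPM (counts divided by the total of their library) of the 10 genes, at 8402, 8572 and 8632, while the other 9 reached up to 9542. They were also the 3 lowest in the summed CPM of all 10 listed markers of elongated spermatids (20073, 21019 and 21146, against 22051 to 24995 in the others). F0_5NC replicate 1 in addition had the highest sum of 12 Sertoli cell markers, at 1846 CPM against 898 to 1256 in the other 11 libraries. It also had the highest sum of 10 Leydig cell markers, at 3525 CPM. F0_5251KD replicate 1 was close behind in Leydig markers at 3356 CPM, and the other 10 libraries lay between 1553 and 2466 CPM. The sums of spermatogonia (141 CPM), endothelium (61.9 CPM) and macrophage markers (202 CPM) were highest in F0_5NC replicate 1 as well. The markers of spermatocytes were between 2770 and 3001 CPM in the 12 libraries, so the tissue label of testis was borne out by germ cell, Sertoli and Leydig genes, with 0 genes of these lists at 0 in any group. Epididymis markers (6 of 8 in the table) summed to 2.4 to 11.4 CPM in both LV3 groups and 5.4 to 114 CPM in both LV5 groups. Between libraries of a group the chi-square per gene was 3.73 to 20.2, and no pair was the same within sampling noise.

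FPKM (a count divided by the gene's length and by the total of its library) allows levels of different genes to be compared per length. The germ cell isoform was the more abundant one at the kinase, dehydrogenase and lactate steps, but not at the enolase step. Ldhc, the lactate dehydrogenase subunit of germ cells, had the highest mean level of the 10 genes, 2815 FPKM (range 2736 to 2933 over the 12 libraries), and was number 6 of all 20718 genes. Gapdhs, the sperm glyceraldehyde-3-phosphate dehydrogenase, followed at 1101 FPKM (808 to 1240.0) and Pgk2 at 659 FPKM (556 to 765). Ldha, the lactate dehydrogenase A subunit, had a mean of 570.0 FPKM (543 to 586). Hk1, which phosphorylates glucose at the entry of the pathway, had 515 FPKM (452 to 547). Then came Gapdh at 161 FPKM (129 to 197), Eno1 at 143 FPKM (113 to 159), Ldhb, the B subunit, at 68.4 FPKM (57.8 to 104), Eno4 at 19.8 FPKM (13.5 to 24.8) and last Pgk1, between 12.4 and 17.4 FPKM. Between neighbours in this order, the ranges of Pgk2 and Ldha, of Ldha and Hk1, of Gapdh and Eno1, and of Eno4 and Pgk1 overlapped. Within a library, Ldha was above Hk1 and Gapdh above Eno1 in 12 of 12, and Pgk2 above Ldha and Eno4 above Pgk1 in 11 of 12. The other neighbours did not overlap.

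**Figure D1:**
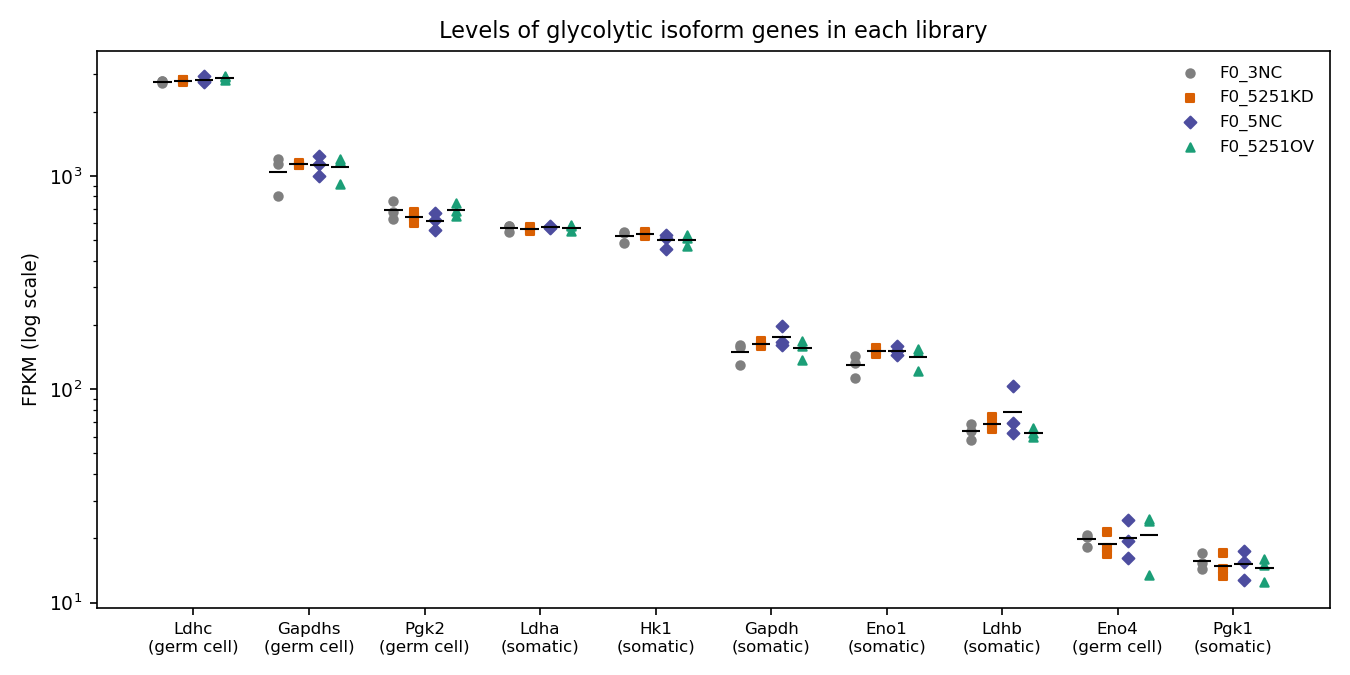
Level of each of the 10 genes (FPKM, log axis) in the 12 libraries, where each point is a library, colour and shape give the group and the dash is the group mean of 3 libraries. Ldhc lay between 2736 and 2933 FPKM and Pgk1 between 12.4 and 17.4 FPKM, and the 4 groups of each gene lie at about the same height.

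The genes differed in how much they varied between libraries. Ldhc varied least, with its highest library 1.07 times its lowest, and Ldha was next at 1.08. Hk1 was at 1.21, Pgk2 at 1.38, Pgk1 at 1.40, Eno1 at 1.41, Gapdh at 1.52 and Gapdhs at 1.53. The widest were Ldhb at 1.80 and Eno4 at 1.83. For Eno4 the gene length implied by count and FPKM differed between libraries. It was longest in F0_5251OV replicate 3 (3030 bases), the lowest library in FPKM, and shortest in F0_5251OV replicate 2 (2712 bases), the highest. In CPM, which uses no length, Eno4 lay between 41.0 and 68.0. The part of the length in its spread was not tested.

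Ldhc stood at 2777, 2736 and 2784 FPKM in F0_3NC, then at 2741, 2826 and 2804 in F0_5251KD, at 2754, 2924 and 2778 in F0_5NC and at 2808, 2911 and 2933 in F0_5251OV. All groups overlapped, and the highest library was in F0_5251OV and the lowest in F0_3NC.

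Gapdhs stood at 1137, 808 and 1197 FPKM in F0_3NC, then at 1146, 1128 and 1127 in F0_5251KD, at 1001, 1240.0 and 1132 in F0_5NC and at 919, 1178 and 1202 in F0_5251OV. The low values in F0_3NC, F0_5NC and F0_5251OV were those of the 3 libraries that stood apart, and the other 9 lay between 1127 and 1240.0. Gapdhs and Hk1 both enter the 10-gene sum that was lowest in these libraries, so their low values there partly follow from that choice. Hk1, whose germ cell form is anchored in the flagellum with Gapdhs, had its 3 lowest values in the same libraries, with 546, 484 and 540.1 FPKM in F0_3NC, then 522, 547 and 537 in F0_5251KD, then 452, 530.3 and 513 in F0_5NC and 468, 510.4 and 529.6 in F0_5251OV. Pgam2, a phosphoglycerate mutase outside the 10 genes, also had its 3 lowest values there, at 560.3, 641 and 819 FPKM. So did the germ cell aldolase Aldoart2, at 198, 215.9 and 215.7 FPKM. Other germ cell genes went partly the other way. Ldhal6b was highest in F0_5251OV replicate 1 (593 FPKM), and Aldoart1 was high there (91.2 FPKM) and in F0_3NC replicate 2 (91.1 FPKM). Both were lowest in F0_5NC replicate 1. The sum of elongated spermatid markers was lowest in the 3 libraries that stood apart too, and its part in the levels was not tested. In bulk tissue, fewer cells of a type and less RNA per cell cannot be told apart.

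Pgk2 stood at 676, 765 and 628 FPKM in F0_3NC, then at 599.7, 639 and 679 in F0_5251KD, at 556, 669 and 619 in F0_5NC and at 746, 646 and 682 in F0_5251OV. Its order of libraries was another one: F0_3NC replicate 2 and F0_5251OV replicate 1, the libraries lowest in Gapdhs, were the highest in Pgk2, and F0_5NC replicate 1 was the lowest. The groups overlapped in each comparison.

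Ldhb stood at 68.8, 57.8 and 63.5 FPKM in F0_3NC, then at 74.3, 65.3 and 67.1 in F0_5251KD, at 104, 62.2 and 69.7 in F0_5NC and at 62.5, 66.0 and 59.5 in F0_5251OV. The 11 libraries other than F0_5NC replicate 1 lay between 57.8 and 74.3 FPKM. Gapdh stood at 160.4, 129 and 158 FPKM in F0_3NC, then at 168, 162 and 159.6 in F0_5251KD, at 197, 161 and 167 in F0_5NC and at 137, 169 and 160.1 in F0_5251OV, again highest in F0_5NC replicate 1. That library also had the highest Pgk1, at 17.4 FPKM. Its marker sums were the highest for Sertoli cells, Leydig cells, spermatogonia, endothelium and macrophages alike. F0_5251KD replicate 1 was next in these sums, except that of macrophages. It had the second highest Ldhb, at 74.3 FPKM, and a Pgk1 of 17.1 FPKM. F0_3NC replicate 2, with the lowest Sertoli sum, had 17.2 FPKM of Pgk1. The part of any of these cells in the 3 somatic isoforms was not tested.

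**Figure D2:**
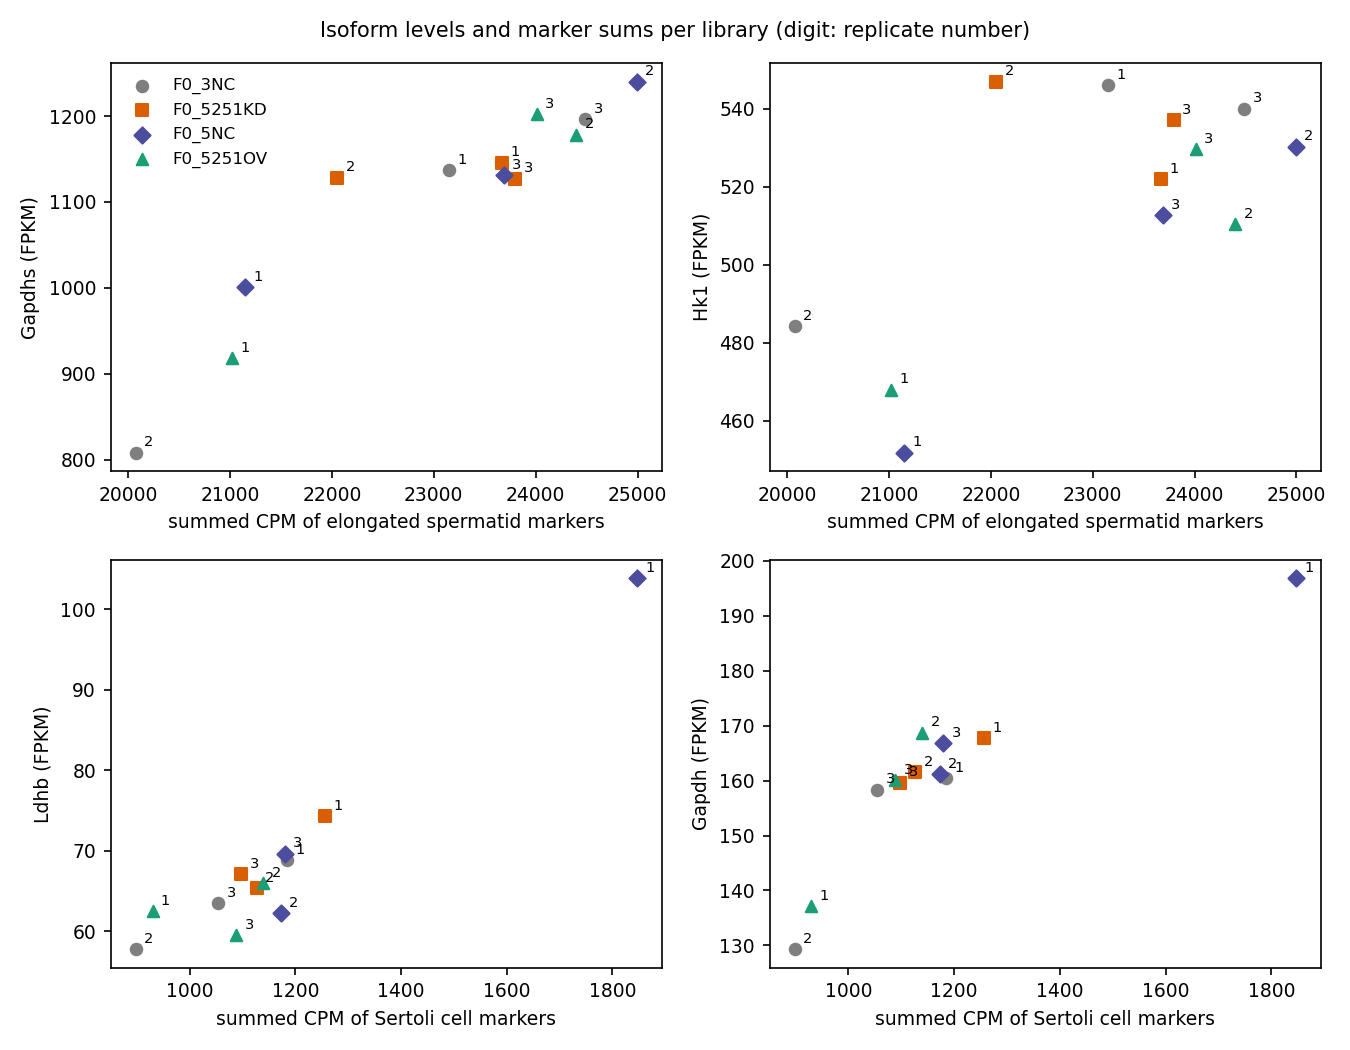
Each point is 1 of the 12 libraries, with the digit giving the replicate number and colour and shape the group; the upper panels plot Gapdhs and Hk1 (FPKM) against the summed CPM of elongated spermatid markers, and the lower panels Ldhb and Gapdh (FPKM) against the summed CPM of Sertoli cell markers. F0_3NC replicate 2, F0_5251OV replicate 1 and F0_5NC replicate 1 are at the lower left of the upper panels, and F0_5NC replicate 1 is alone at 1846 CPM, with 104 FPKM of Ldhb and 197 FPKM of Gapdh.

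Eno1 stood at 132, 113 and 143 FPKM in F0_3NC, then at 155, 147 and 151 in F0_5251KD, at 152, 159 and 144 in F0_5NC and at 121, 155 and 149 in F0_5251OV. Both of its lowest values were those of F0_3NC replicate 2 and F0_5251OV replicate 1. Group means of Ldha were between 561 and 577 FPKM, with SDs of 5.17 to 23.4 (n = 3). Those of Pgk1 were between 14.5 and 15.6 FPKM (SD 1.45 to 2.34), and those of Eno4, an enolase needed in the sperm tail, between 18.8 and 20.8 FPKM (SD 1.38 to 6.32).

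Taking the levels as ratios within a library removes the library total. Pgk2 was 31.9 to 54.8 times the level of Pgk1 over the 12 libraries (median 44.4), so that it made up 97.0% to 98.2% of the summed FPKM of the 2 genes. By group the ratio was 44.2 ± 0.363 for F0_3NC, 43.6 ± 7.33 for F0_5251KD, 41.5 ± 10.3 for F0_5NC and 48.2 ± 6.03 in F0_5251OV (SD, n = 3). The F0_3NC libraries agreed far more closely than those of the other groups, although both genes differed between them.

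Ldhc was 4.75 to 5.11 times the level of Ldha (median 5.01), the narrowest of the 5 ratios, with group means between 4.86 and 5.04. It was 26.5 to 49.3 times the level of Ldhb (median 43.5). The group means of Ldhc to Ldhb were 43.8 ± 3.52 in F0_3NC, 40.6 ± 3.34 in F0_5251KD, 37.8 ± 10.4 in F0_5NC and 46.1 ± 2.78 in F0_5251OV, and the lowest value was that of F0_5NC replicate 1. Gapdhs was 5.08 to 7.69 times the level of Gapdh (median 6.98), with its lowest value in the same library and its next lowest in F0_3NC replicate 2.

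Enolase went the other way. Eno4 had 0.0909 to 0.200 times the level of Eno1 (median 0.140), which is 8.33% to 16.6% of the summed FPKM. The highest and the lowest of these values were both in F0_5251OV, in replicates 1 and 3. The implied lengths of Eno4 in these libraries were 2718 and 3030 bases.

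None of the 5 ratios differed over the 4 groups by the exact permutation test on log2 ratios, which ran through all 369600 assignments of the 12 libraries. The p-values were 0.698 for Pgk2 to Pgk1, 0.491 for Ldhc to Ldha, 0.401 for Ldhc to Ldhb, 0.871 for Gapdhs to Gapdh and 0.703 for Eno4 to Eno1 by this exact test, each with a Benjamini-Hochberg adjusted value of 0.871 over the 5 ratios. Without the 3 libraries that stood apart the adjusted value was 0.907 for each ratio. These libraries were picked after the levels of the same genes were seen. Values without them, here and in the comparisons below, are therefore not independent of that choice. In each pair of groups compared the ratios overlapped. The largest difference in log2 ratio between a treatment and its control was 0.33 for Ldhc to Ldhb (F0_5251OV above F0_5NC, pooled SD 0.31, exact permutation p = 0.3), followed by -0.31 for Eno4 to Eno1 (F0_5251KD below F0_3NC, pooled SD 0.21, exact permutation p = 0.2). With 3 against 3 libraries the smallest possible p is 0.1.

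**Figure D3:**
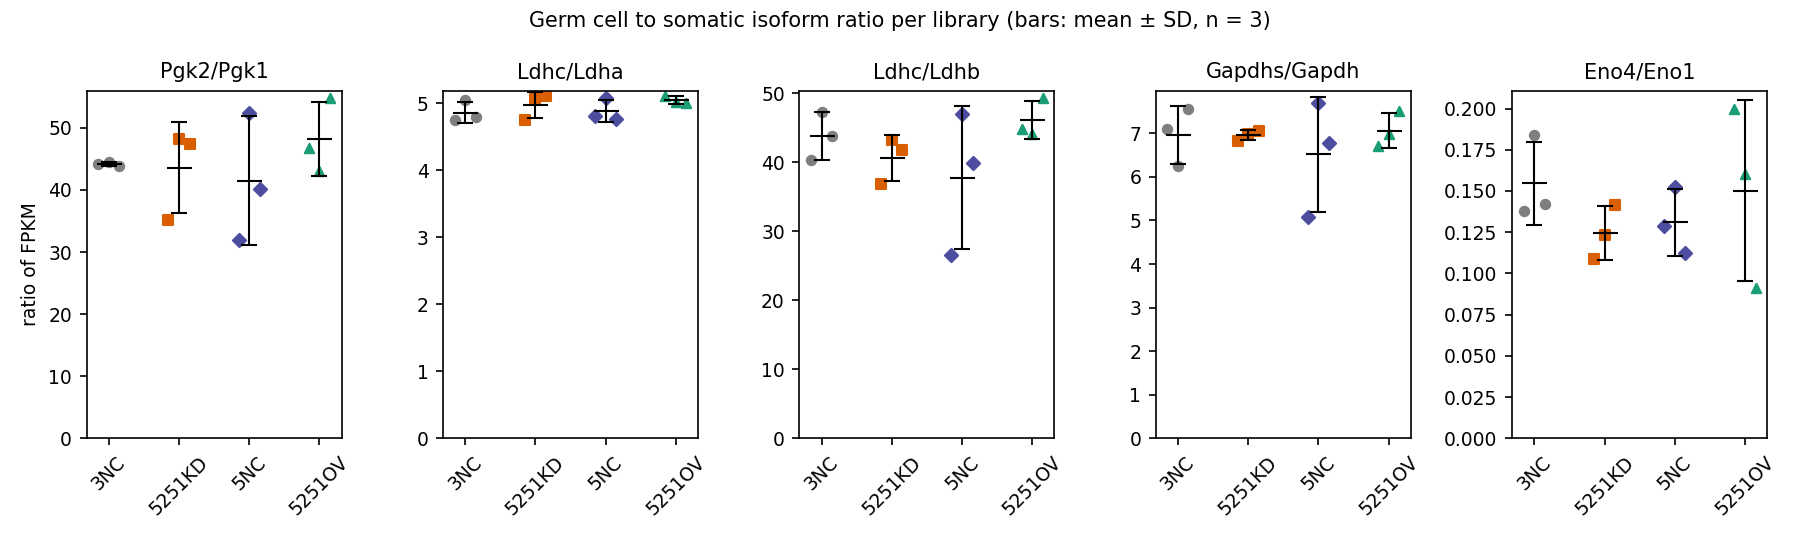
Ratio of germ cell to somatic isoform (FPKM divided by FPKM, linear axes from 0) in each library by group, with bars for the mean ± SD of 3 libraries. Ldhc to Ldha stays between 4.75 and 5.11, while F0_5NC replicate 1 is the lowest point of Pgk2 to Pgk1, Ldhc to Ldhb and Gapdhs to Gapdh.

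Whether knockdown of lncRNA5251 changed the isoforms was tested in F0_5251KD against F0_3NC. 0 of the 10 genes were called by edgeR at an adjusted p under 0.05, where 0.0245% of all genes tested were called. At an unadjusted p under 0.05 there were again 0 members by edgeR and 0 by DESeq2, beside 4.74% of all genes by edgeR. Pgk2 had a mean of 639 ± 39.8 FPKM in F0_5251KD and 690 ± 69.7 in F0_3NC (SD, n = 3), and its log2 fold change was -0.12 (SE 0.105, 95% interval -0.34 to 0.11, edgeR adjusted p 0.897). Ldhc, at 0.02 (SE 0.078, 95% interval -0.15 to 0.18), was the most narrowly bounded germ cell isoform, and Gapdhs, at 0.10 (SE 0.158, 95% interval -0.24 to 0.44), was less so. The largest value was that of Eno1, 151 ± 4.31 against 129 ± 15.4 FPKM, with a log2 fold change of 0.21 (95% interval -0.03 to 0.46, edgeR adjusted p 0.897). Without F0_3NC replicate 2 the value was 0.11, and without the 3 libraries that stood apart 0.12. Eno1 was also the only one of the 10 genes whose groups did not overlap, which held for 11.8% of all genes tested. Of the sums of cell markers, those of Sertoli cells, Leydig cells, macrophages, spermatogonia, spermatocytes, round spermatids and elongated spermatids overlapped between these groups. That of epididymis was lower in F0_5251KD without overlap, at 2.4 to 5.2 against 5.4 to 11.4 CPM. Those of endothelium, red blood cells and peritubular muscle were higher in F0_5251KD without overlap. They were 54.4 to 61.6 CPM against 46.7 to 49.1 for 10 endothelium markers and 69.0 to 109 against 54.6 to 62.0 CPM for 6 markers of red blood cells. For 8 markers of peritubular muscle they were 384 to 391 against 339 to 381 CPM. The muscle sum rested mostly on Actg2, with a mean of 215 FPKM beside 35.8 for Myl9, the next highest. Actg2 was at 0.04 here and at 0.16 in F0_5251OV against F0_5NC, where the 7 other muscle markers were lower. The part of these cells in the Eno1 value was not tested. The remaining 6 values lay between -0.08 (Pgk1) and 0.11 (Gapdh and Ldhb). The median over the 10 genes was 0.02, beside -0.004 over all genes tested.

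Overexpression was tested in F0_5251OV against F0_5NC. 0 of the 10 genes were called by edgeR, beside 0% of all genes tested, and 0 had an unadjusted p under 0.05, beside 8.77% of all genes. DESeq2 gave 1 member an unadjusted p under 0.05 and called 0. Pgk2 was at 691 ± 50.4 FPKM in F0_5251OV and 615 ± 56.7 in F0_5NC, with a log2 fold change of 0.21 (SE 0.105, 95% interval -0.02 to 0.43, edgeR adjusted p 0.580). Without F0_5NC replicate 1 this value was 0.10, and without all 3 libraries that stood apart it was 0.06. Ldhb was at 62.7 ± 3.23 and 78.6 ± 22.2 FPKM, with a log2 fold change of -0.27 (SE 0.129, 95% interval -0.55 to 0.01, edgeR adjusted p 0.571). It was -0.08 without F0_5NC replicate 1 and -0.06 without the 3 libraries. The other 8 genes lay between -0.13 (Gapdh) and 0.07 (Eno4 and Ldhc), and Gapdh was at 0.01 without the 3 libraries. No member had groups that did not overlap, beside 13.9% of all genes.

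The 2 controls, F0_3NC and F0_5NC, differ in their vector, and a batch shared by the groups of a vector could not be separated from it. 0 of the 10 genes were called by edgeR, beside 0.331% of all genes tested, and 0 had an unadjusted p under 0.05, beside 11.9% of all genes; DESeq2 gave 1 at an unadjusted p under 0.05. Pgk2 was at a log2 fold change of 0.19 (SE 0.105, 95% interval -0.04 to 0.41) in F0_3NC against F0_5NC, and Ldhb at -0.27 (SE 0.129, 95% interval -0.55 to 0.01, edgeR adjusted p 0.430). Both values were close to those of F0_5251OV against F0_5NC, which uses the same F0_5NC libraries. Without the 3 libraries that stood apart they were 0.01 and -0.001. Gapdh, at -0.19 (SE 0.105, 95% interval -0.41 to 0.04), was the only member whose groups did not overlap, which held for 17% of all genes tested, and it was -0.04 without the 3 libraries. The median over the 10 genes was -0.002.

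Whether knockdown and overexpression moved a gene differently was tested as the difference of their effects, each against its own control. edgeR called 0 of the 10 genes, beside 0% of all genes tested. Pgk2 was the only member with an unadjusted p under 0.05 in edgeR, which 11.3% of all genes had. Its difference was -0.32 (SE 0.148, 95% interval -0.64 to -0.004, unadjusted p 0.0476 and adjusted p 0.441 by edgeR), and it was -0.10 without the 3 libraries that stood apart. Ldhb had a difference of 0.38 (SE 0.183, 95% interval -0.01 to 0.78, edgeR adjusted p 0.442), and 0.11 without these libraries. DESeq2 gave 2 members an unadjusted p under 0.05 and called 0.

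**Figure D4:**
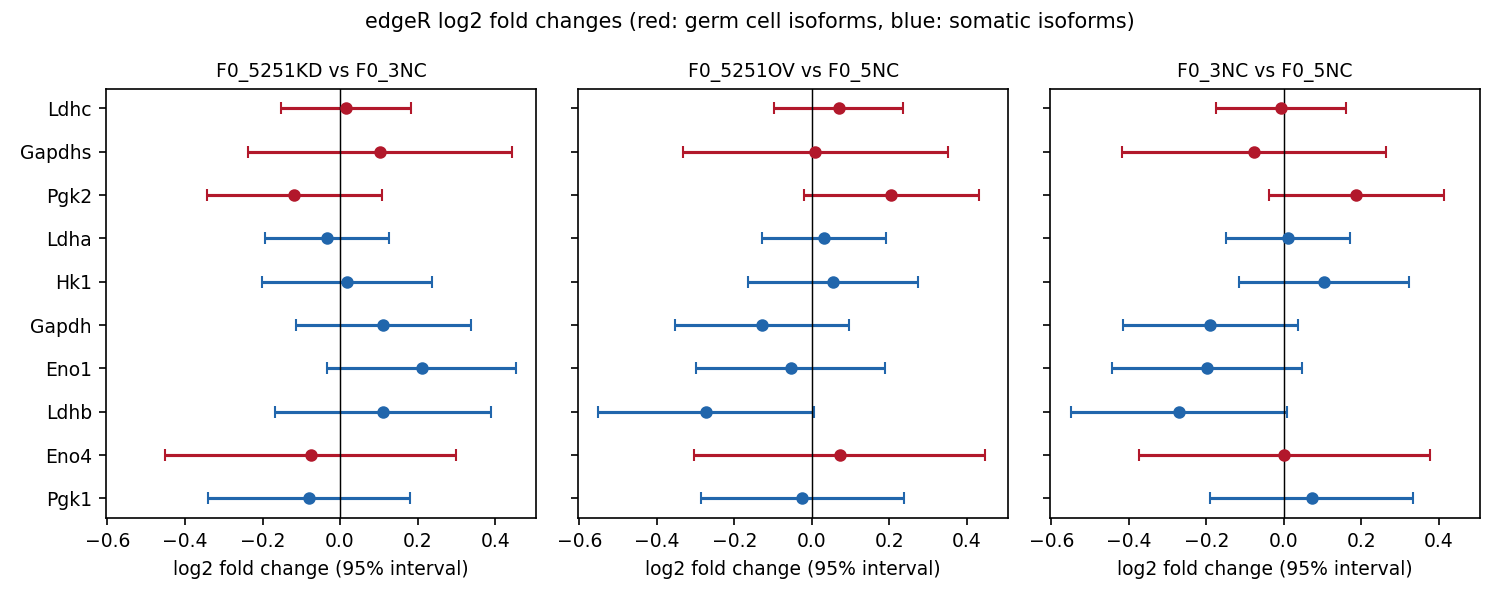
Log2 fold change of each of the 10 genes by edgeR in the 3 comparisons, with 95% intervals as bars, germ cell isoforms in red and the others in blue. Every interval includes 0, and Ldhb in F0_5251OV against F0_5NC and in F0_3NC against F0_5NC comes closest to leaving it out.

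The other enzymes of the pathway give the frame in which the isoforms stand. Of 21 listed glycolytic enzymes outside the 10 genes, 18 were tested and 0 were called in any comparison. In F0_5251KD against F0_3NC, 13 were higher and 5 lower, with a median of 0.05, and without the 3 libraries that stood apart 9 were higher and 9 lower, with a median of 0.01. Among the values furthest from 0 were those of Eno2, the neuronal enolase, at 0.27 and Adpgk, which uses ADP to phosphorylate glucose, at 0.22. In F0_5251OV against F0_5NC, 4 were higher and 14 lower, with a median of -0.05. Hk3 was at -0.97 (edgeR adjusted p 0.552), Ldhd, the D-lactate dehydrogenase, at -0.60 and Pfkl, the liver phosphofructokinase, at -0.45; all of them had mean levels below 7 FPKM. Without F0_5NC replicate 1, the library with the highest Sertoli marker sum, they were at -1.03, -0.40 and -0.20, and the list had 3 higher and 15 lower genes, with a median of -0.10. Without the 3 libraries that stood apart it had 7 higher and 11 lower, with a median of -0.06. The 12 Sertoli cell markers were all below 0 in F0_5251OV against F0_5NC, with a median of -0.29 and 0 called, and likewise in F0_3NC against F0_5NC, with a median of -0.31. Their part in the values of the list was not tested. In F0_3NC against F0_5NC, 5 were higher and 13 lower, with Ldhd at -0.48, Pfkl at -0.47 and Eno2 at 0.35. This comparison shares the F0_5NC libraries with the one before it, and without F0_5NC replicate 1 the values were -0.29, -0.23 and 0.87. Over all genes tested the medians were within 0.005 of 0 in these comparisons.

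Levels across the pathway were uneven, as the plot by enzyme step shows. Pgam2 had a mean of 830 FPKM (560.3 to 969), and Pgam1, the other mutase, 42.9 FPKM. Aldoa, the aldolase of muscle and most tissues, had 298 FPKM, and the intronless germ cell aldolases Aldoart2 and Aldoart1 had 238 and 83.5 FPKM. Gpi1, the glucose phosphate isomerase, was at 212 FPKM, Tpi1, the triose phosphate isomerase, at 194 FPKM and Pkm, the pyruvate kinase, at 174 FPKM. Phosphofructokinase had the lowest level of the steps shown, with Pfkm at 55.4, Pfkp at 53.2 and Pfkl at 6.05 FPKM. Ldhal6b, another germ cell lactate dehydrogenase gene without introns, was at 527 FPKM, near Ldha. Hk2 and Hk3 had 5.08 and 0.371 FPKM, far below Hk1.

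**Figure D5:**
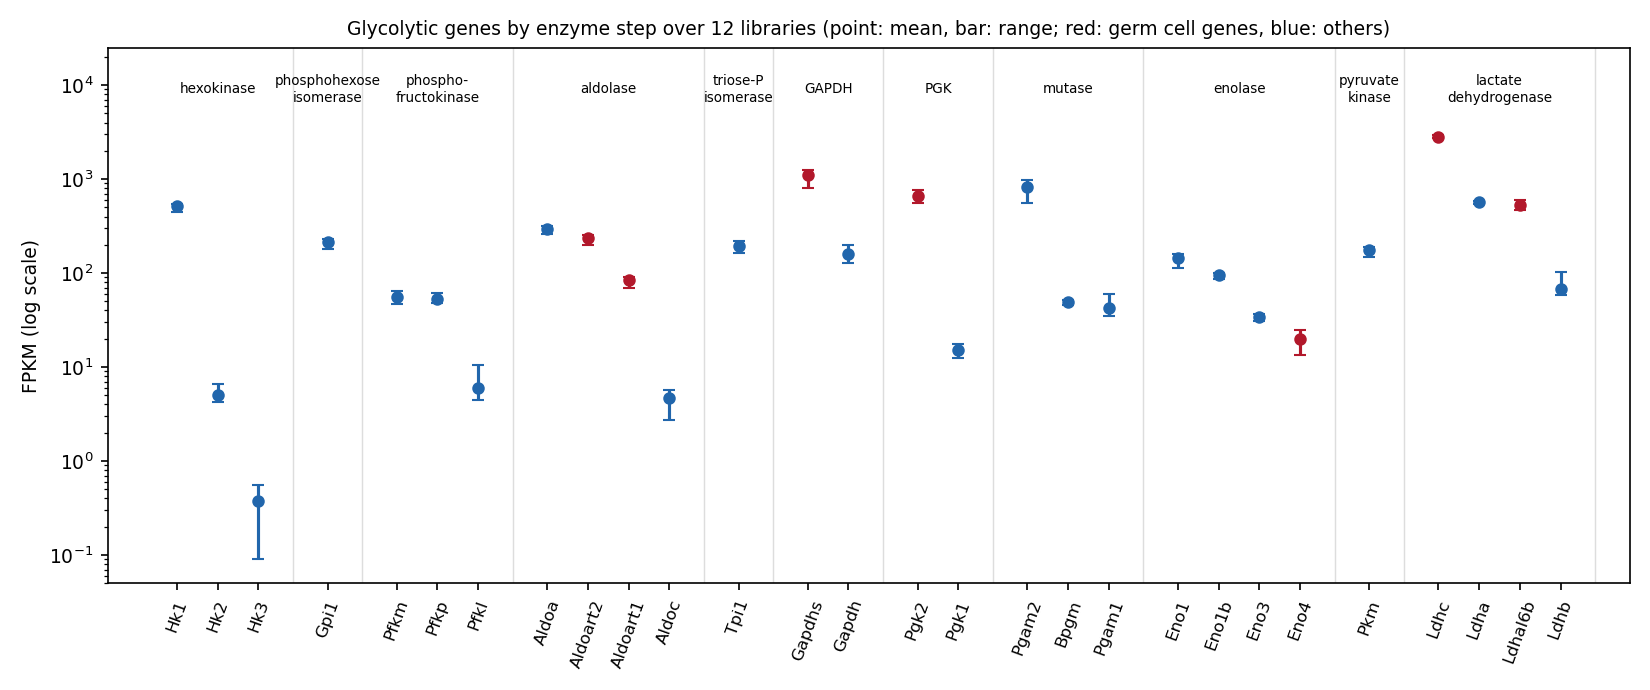
Mean FPKM over the 12 libraries (log axis, bars for the lowest and highest library) of the glycolytic genes grouped by enzyme step from hexokinase to lactate dehydrogenase, with the germ cell isoforms and the retrogenes Aldoart1, Aldoart2 and Ldhal6b in red and the others in blue. At the glyceraldehyde-3-phosphate and phosphoglycerate kinase steps and for lactate dehydrogenase a red gene is the highest. At the aldolase and enolase steps the highest single genes are Aldoa and Eno1. Eno1b, which is also among the listed retrogenes, is drawn in blue, at a mean of 94.8 FPKM.

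Of 6 listed retrogenes, which are intronless copies made from RNA and mostly transcribed in germ cells, 5 were in the table and tested, and 0 were called in any comparison. Aldoart1 was furthest from 0 in F0_5251OV against F0_5NC, at 0.21 (edgeR adjusted p 0.570), and in F0_3NC against F0_5NC, at 0.26 (adjusted p 0.360), and it was also furthest in F0_5251KD against F0_3NC, at -0.13. Aldoart2 was at 0.07 and Eno1b at 0.09 in F0_5251KD against F0_3NC. Ldhal6b was at 0.18 and Pdha2, a subunit of pyruvate dehydrogenase in germ cells, at 0.15 in F0_5251OV against F0_5NC, and at 0.11 each in F0_3NC against F0_5NC. Without F0_5NC replicate 1, which both comparisons use, Aldoart1 was at 0.10 and 0.15, Ldhal6b at 0.10 and 0.03 and Pdha2 at 0.09 and 0.04. Pdha2 had a mean of 99.0 FPKM beside 3.47 for its X-linked counterpart Pdha1, the same order as Pgk2 and Pgk1.

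Of 18 genes that border on glycolysis, such as the pyruvate dehydrogenase complex and its kinases, 18 were tested and 0 were called in any comparison. In F0_5251KD against F0_3NC the values furthest from 0 were those of Pdk1, a kinase that inhibits pyruvate dehydrogenase, at -0.21, and of the glycerol-3-phosphate dehydrogenases Gpd1l and Gpd1, both at 0.21. In F0_5251OV against F0_5NC, Gpd1 was at -0.38 (edgeR adjusted p 0.526), Pdk4 at -0.32 and Pfkfb1 at 0.28. Pdk4, another pyruvate dehydrogenase kinase, had the largest value, 1.02 in F0_3NC against F0_5NC (SE 0.237, edgeR adjusted p 0.132), at a mean level of 1.34 FPKM. In the same comparison Gpd1l was at -0.41 (edgeR adjusted p 0.372) and Gpd1 at -0.27 (edgeR adjusted p 0.405). Both comparisons use the F0_5NC libraries, and without F0_5NC replicate 1 Gpd1 was at -0.28 in F0_5251OV and -0.17 in F0_3NC.

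The genes whose log2 CPM ran most like each germ cell isoform over the 12 libraries were found among 9705 genes that averaged 10 CPM or more. For Gapdhs they were Spata20 (Pearson's r 0.990), Ubxn11 (0.989) and Rexo1 (0.986). For Pgk2 they were Cep170 (0.969), Spata4 (0.968) and Pafah1b2 (0.968). For Ldhc they were Slc2a5, a fructose transporter (0.966), Bag1 (0.961) and Actg2 (0.957), over a range of only 0.25 in the log2 CPM of Ldhc. For Eno4 the highest values were lower, with Mrrf at 0.843, Utp3 at 0.840 and 2310057M21Rik at 0.830. The points share the library and its cell composition, and the 3 libraries that stood apart are among them.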

How the data were processed

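Messenger RNA was captured by the authors on oligo(dT), copied with random hexamer primers and sequenced on an Illumina HiSeq without a named strand step. SOAPaligner appears in the methods and mm10 in the labels. The program behind the table is not named in the sources read here. The deposited table held estimated counts (12.0% not whole, tolerance 1e-06) and FPKM values, computed by the authors, for each gene and library. Estimated counts were rounded. A further 18 per-sample columns of other samples were not used.

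Differences were tested two-sided with edgeR 4.0.16 in R 4.3.3 (TMM, filterByExpr, quasi-likelihood F test, 16296 genes, 12 libraries, 4 groups, Benjamini-Hochberg threshold 0.05), and ratios with exact permutation tests. The study names DEGseq, which takes no account of replicates. Alternatives were DESeq2 1.42.0, limma 3.58.1 on log2(FPKM + 1) and log2(FPKM + 0.1), upper-quartile scaling, no filter, at least 1 CPM in 3 samples, only the groups compared, the replicate number as a block, and leaving out each library; leaving out 3 libraries together, and F0_5NC replicate 1 for the pathway lists, was added after seeing the data. The fit was checked on simulated counts.

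Named were all 10 members, called genes and the 3 largest fold changes per pathway list and comparison, and the 3 genes most like each germ cell isoform, while mean levels and genes beside the libraries that stood apart were chosen after their values were seen. A gene that this rule names is left out of the text. The members and lists were chosen with earlier results of these data known. Sequences were read from the GENCODE M21 transcripts.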

Additional observations from a re-analysis of the deposited data

How the results depend on the processing

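The count of members called was 0 in all 4 comparisons under every alternative, and the smallest adjusted p of a member was 0.272. The adjusted p of the ratios lay between 0.205 and 0.927. Of 350 values of single genes under alternatives other than leaving out 1 library, 322 kept their sign and 28 changed it, 10 of these without the 3 libraries that stood apart. Of 300 values without 1 library, 257 kept their sign. In F0_5251OV vs F0_5NC, Ldha was -0.014 by limma with either pseudocount, and Gapdhs was -0.011 with upper-quartile scaling, -0.0013 with the 1 CPM filter and -0.036 by limma with either pseudocount. In F0_3NC vs F0_5NC, Ldha was -0.0063 with upper-quartile scaling, -0.0025 with the 1 CPM filter, -0.02 by limma with either pseudocount and -0.0021 with only these groups, and Eno4 was -0.0074 by DESeq2, -0.014 with upper-quartile scaling, -0.0076 with no filter and -0.011 both with the 1 CPM filter and with only these groups. The difference of effects of Hk1 was 0.02 by limma with either pseudocount. Without the 3 libraries that stood apart, Ldhc (-0.00048), Gapdhs (-0.052) and Hk1 (-0.035) changed sign in F0_5251KD vs F0_3NC, Gapdh (0.011), Eno1 (0.013) and Eno4 (-0.079) in F0_5251OV vs F0_5NC, Eno4 (-0.08) in F0_3NC vs F0_5NC, and Pgk1 (0.019), Gapdhs (-0.07) and Eno4 (0.035) in the difference of effects. Of these, the difference of effects of Eno4 was -0.15 with all libraries, Gapdh in F0_5251OV vs F0_5NC -0.13 and Gapdhs in F0_5251KD vs F0_3NC 0.10. The cause was not tested.

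Leaving out each library in turn, the values that changed sign ranged from -0.12 to 0.059 for Eno1, from -0.047 to 0.26 for Eno4, from -0.11 to 0.14 for Gapdhs, from -0.05 to 0.13 for Hk1, from -0.017 to 0.073 for Ldha and from -0.11 to 0.058 for Pgk1 in F0_5251OV vs F0_5NC. They ranged from -0.11 to 0.19 for Eno4, from -0.19 to 0.093 for Gapdhs, from -0.004 to 0.18 for Hk1, from -0.039 to 0.06 for Ldha, from -0.066 to 0.048 for Ldhc and from -0.015 to 0.13 for Pgk1 in F0_3NC vs F0_5NC. They ranged from -0.063 to 0.22 for Gapdhs, from -0.047 to 0.049 for Hk1 and from -0.012 to 0.032 for Ldhc in F0_5251KD vs F0_3NC. They ranged from -0.079 to 0.22 for Gapdhs, from -0.11 to 0.077 for Hk1, from -0.11 to 0.013 for Ldhc and from -0.16 to 0.033 for Pgk1 in the difference of effects.

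The same replicate numbers gave no clear pairing of the libraries. The correlation of their deviations from the group means lay between -0.184 and 0.0791 in the groups compared. Over all pairs of groups it lay between -0.221 and 0.146. Of 12 libraries, 6 correlated best with their own number, which does not by itself exclude a pairing. With the replicate number as a block, 0 members were called in any comparison, the adjusted p of the ratios was 0.792 to 0.809, and the count of all genes called in F0_5251KD vs F0_3NC was 2 in place of 4. Over all genes, DESeq2 called 20, 28, 138 and 35 in F0_5251KD vs F0_3NC, F0_5251OV vs F0_5NC, F0_3NC vs F0_5NC and the difference of effects, where edgeR called 4, 0, 54 and 0. limma with a pseudocount of 1 called 2 genes in F0_5251KD vs F0_3NC, and with 0.1 it called 0. For F0_5251OV vs F0_5NC, no filter and only these groups gave 3 each. Without the 3 libraries the controls differed in 28 genes. Library totals differed by a ratio of 1.06, and the intervals in the report give the size of change that could have been missed.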
